A study of Homo sapiens with 2 samples.

Results

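The 10 mRNAs described here encode the regulators and effectors of the integrated stress response and the unfolded protein response in Caco-2 cells. They are ATF4, DDIT3, ATF3, ASNS, CHAC1, TRIB3, PPP1R15A, PPP1R15B, DDIT4 and XBP1. They were chosen by gene symbol, and all 10 were found among the 23709 genes of the table. Caco-2 is an established human colorectal adenocarcinoma cell line, grown here in serum-containing medium with penicillin, streptomycin and ciprofloxacin, and the labels name no stress treatment. Polyadenylated RNA was sequenced as 2 libraries. The mRNA library came from total RNA, and the RNC-mRNA library from the RNA of ribosome-nascent chain complexes, that is, of mRNAs carrying ribosomes. The labels do not say whether both came from the same culture. With 1 library of each kind there is no replicate check, so each difference describes these libraries and no p-value is given.

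In the integrated stress response, kinases that sense amino acid shortage, endoplasmic reticulum (ER) stress, viral RNA or haem deficiency phosphorylate the initiation factor eIF2, which lowers initiation on most mRNAs. Some mRNAs carry upstream reading frames in their 5′ leader that hold back the main frame in unstressed cells and let it be translated when eIF2 is phosphorylated. ATF4 is the best known of them. DDIT3, PPP1R15A, PPP1R15B and CHAC1 are further members known for upstream frames. The unfolded protein response adds the ER sensors IRE1 (gene ERN1) and ATF6, and IRE1 removes a short stretch from XBP1 mRNA to give the active factor. In absorptive intestinal epithelium these pathways match protein synthesis to amino acid supply and to the secretory load of the ER.

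The start sites of the upstream frames are shown first because the members are compared by whether they carry them. Each window holds 21 bases of a GENCODE 29 (GRCh38) reference transcript, written 5′ to 3′ with the AUG (ATG in DNA letters) in capitals and 9 bases on either side. Positions count from 1 at the transcript's first base.
ATF4-202, position 85, frame of 3 codons: acggccaccATGgcgtattag
ATF4-202, position 184, frame of 59 codons that overlaps the main start: gcttaagccATGgcgcttctc
ATF4-202, position 281, main start: caccgcaacATGaccgaaatg
DDIT3-201, position 38, frame of 34 codons: gagcgtatcATGttaaagatg
PPP1R15A-201, position 163, frame of 26 codons: gagggtgagATGaacgcgctg
PPP1R15B-201, position 150, frame of 51 codons: cccgccaggATGgaagtcgca
CHAC1-202, position 84, frame of 202 codons that overlaps the main start: ccttgctgcATGccggcgctg
DDIT4-201, position 202, main start with no upstream AUG: gtcctcaccATGcctagcctt
A purine 3 bases before the AUG and a G directly after it are the strongest features of a start site context. Both were present at the 3-codon and the 59-codon frames of ATF4 and at the 51-codon frame of PPP1R15B. Neither the 34-codon frame of DDIT3 nor the 26-codon frame of PPP1R15A had the G.

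The leaders differed widely between the members and between transcripts of 1 gene. A transcript was assigned to each gene as the reference transcript nearest in length to the length that explains the RPKM values. It need not be the transcript of the measured record. The match was poor for ATF3 (ATF3-202 of 2033 nt against 2387 nt) and DDIT3 (DDIT3-204 of 1067 nt against 1178 nt). By this rule ATF4 was paired with ATF4-201, whose leader of 882 nt held 7 upstream AUG codons, 2 of them in frames that overlap the main start. The shorter ATF4-202 has the textbook arrangement in a leader of 280 nt, with 3 upstream AUG codons. DDIT3-204 had 4 upstream AUG codons in 268 nt, TRIB3-201 had 3 in 553 nt, and PPP1R15A-201, PPP1R15B-201 and ASNS-201 had 2 each. ATF3-202 had 1, in a frame of 95 codons that overlaps the main start. DDIT4-201 (leader of 201 nt) and XBP1-203 (34 nt) had 0. XBP1-201, the reference transcript of the measured XBP1 record, has a leader of 73 nt and also held 0. CHAC1 was paired with CHAC1-204, whose leader of 20 nt held 0, although 3 of 5 CHAC1 reference transcripts held at least 1. Which transcripts Caco-2 cells use was not measured, since the table gives 1 value per gene.

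**Figure D1:**
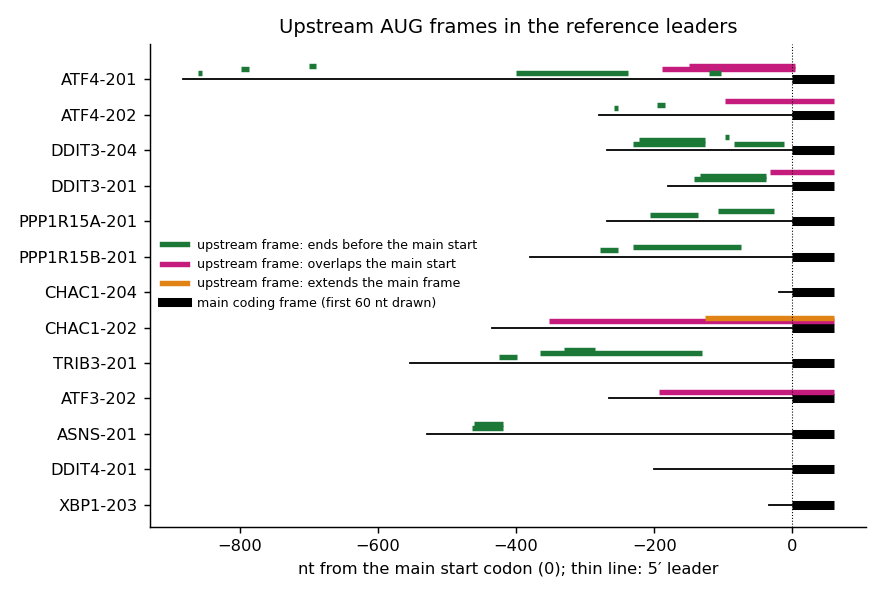
Upstream AUG frames (coloured bars) on the reference 5′ leaders (thin lines), drawn in nt from the main start codon, with the first 60 nt of the main frame in black. ATF4-201 held 7 upstream AUG codons and ATF4-202 held 3, while DDIT4-201, XBP1-203 and CHAC1-204 held 0.

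XBP1 carries another kind of control, in its coding sequence. The reference transcripts XBP1-201 (unspliced) and XBP1-207 (spliced) differ in their ends and, within the coding sequence, by a stretch of 26 nt. Their main frames hold 261 and 376 codons. The stretch is shown in capitals with 10 bases on either side. It can be placed in 7 equal ways, and 1 of them has the letters CNGCNGN, known from IRE1 cleavage sites, across both ends.
XBP1-201, bases 567 to 592 in capitals: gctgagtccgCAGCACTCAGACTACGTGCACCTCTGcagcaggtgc
The XBP1 value counts both forms together.

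The level is given in RPKM, the reads of a gene scaled by transcript length and library total. Read totals of 9640364 (mRNA library) and 11083302 (RNC-mRNA library) and the whole reads of each gene were recovered from the RPKM values. Intervals below are exact 95% intervals that cover counting error only, because PCR copies are not independent molecules. Of the 11 intestinal epithelial markers, 10 were expressed at a mean of at least 1 RPKM. The keratins KRT8 (1490 and 1693 RPKM, mRNA library first) and KRT18 (1163 and 1101 RPKM) led, and KRT20 (0.977 and 0.05 RPKM) stayed under that level. The 6 fibroblast markers were all expressed, at 2.02 to 46.8 RPKM in the mRNA library, and summed to 82.6 and 56.8 RPKM. Blood and endothelial markers summed to 8.97 and 6.15 RPKM, with 2 of 7 expressed. The epithelial LGALS4 (1.87 and 0.776 RPKM) passed that level only through its mRNA value. Among the expressed markers, COL1A2 (-1.03), PECAM1 (-1.29) and LGALS4 (-1.13) were at least 2-fold lower in the RNC-mRNA library, on the log2 scale relative to the median expressed gene. The part of such transcripts in the results was not tested. In bulk RNA, fewer expressing cells and less RNA per cell cannot be told apart.

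All 10 members were expressed in both libraries, over a 55.4-fold range of RPKM in the mRNA library and an 80.3-fold range in the RNC-mRNA library. ATF4 and XBP1, the transcription factors at the head of the 2 pathways, were by far the most abundant. ATF4 had 195 RPKM in the mRNA library (interval 189 to 201, 3799 reads) and 191 RPKM among RNC-mRNA (185 to 197, 4284 reads). It was above 97.9% of expressed genes in the mRNA library and alone made up 42.7% of the members' summed RPKM there and 44.7% in the RNC-mRNA library. XBP1 had 115 RPKM (110 to 120, 2012 reads) and 134 RPKM (129 to 139, 2697 reads). DDIT4 followed in the mRNA library with 40.6 RPKM but was only the seventh of the 10 in the RNC-mRNA library, with 11.3 RPKM.

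Below them, TRIB3, DDIT3, ASNS and PPP1R15A lay between 20.3 and 23.2 RPKM in the mRNA library, and each interval overlapped that of its neighbour in the order. In the RNC-mRNA library the same 4 mRNAs spread out. PPP1R15A (24.7 RPKM) and TRIB3 (21.8 RPKM) had overlapping intervals, and both lay above DDIT3 (12.9 RPKM) and ASNS (11.1 RPKM). PPP1R15B had 11.8 RPKM of mRNA, below these 4, and 14.4 RPKM of RNC-mRNA, the fifth of the 10, where its interval overlapped that of DDIT3. CHAC1 (4.46 and 3.76 RPKM) and ATF3 (3.52 and 2.38 RPKM) were the lowest in both, with overlapping intervals.

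**Figure D2:**
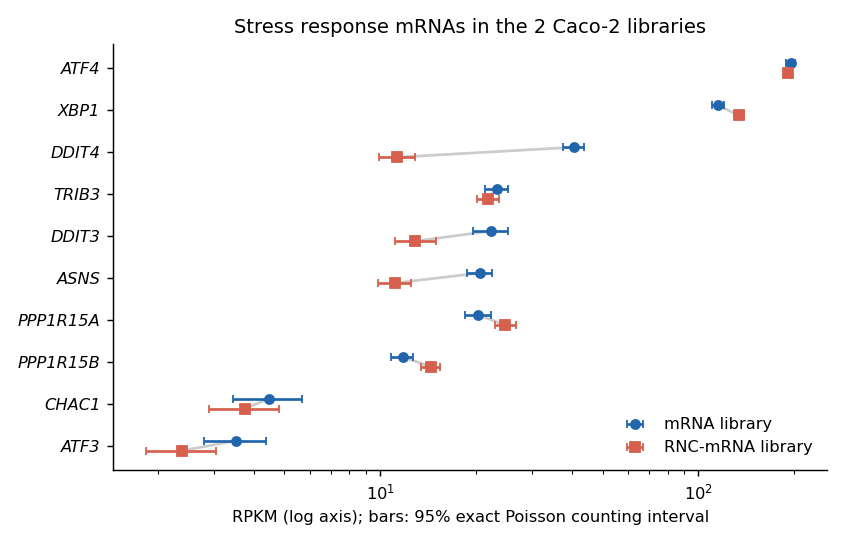
RPKM of each member in the mRNA library (circles) and the RNC-mRNA library (squares) on a log axis, with exact 95% Poisson counting intervals as bars. ATF4 and XBP1 lie above 100 RPKM in both libraries, and DDIT4 shows the widest gap between them, from 40.6 to 11.3 RPKM.

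The translation ratio of a gene is log2 of its RNC-mRNA level over its mRNA level, each with 0.1 RPKM added, and is given relative to the median of the 13402 genes with a mean of at least 1 RPKM. The middle 50% of those genes lay between -0.42 and 0.29. Of the 10 members, 1 (DDIT4) was at least 2-fold below the median, as were 11.8% of all expressed genes. None (0 of 10) was at least 2-fold above it, against 1.37% of all expressed genes. By sign, 6 members lay below the median and 4 above, against 50% of expressed genes below it. The counting interval lay wholly below the median for 4 members (30.6% of the genes with recovered reads) and wholly above it for 3 (32.1%). These shares are too close to the background, in a list of 10, to set the members apart as a group.

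**Figure D3:**
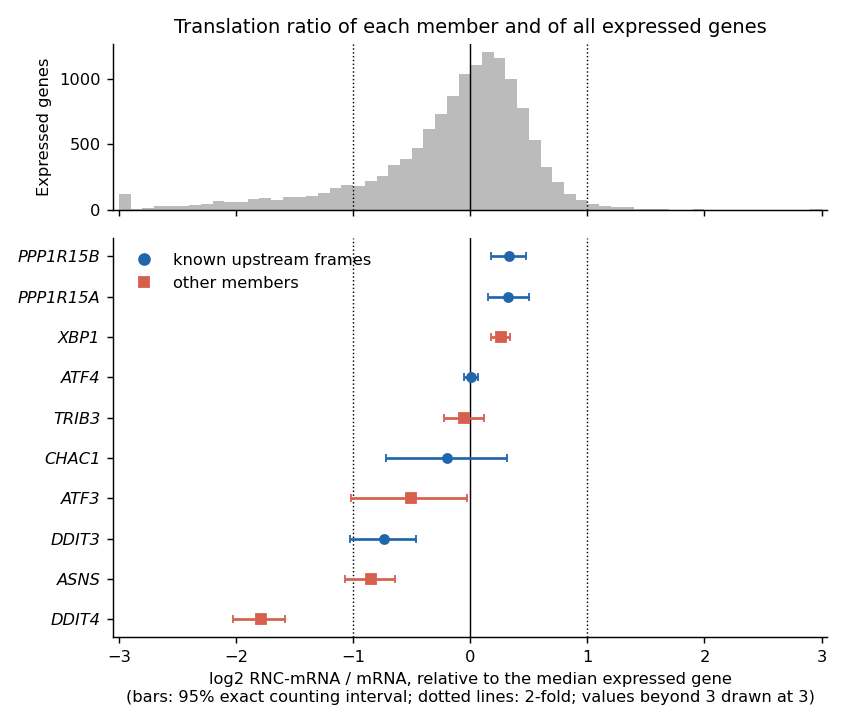
Translation ratios on the log2 scale relative to the median expressed gene, as a histogram of all 13402 expressed genes (top) and for each member with its exact 95% counting interval (bottom). The members run from DDIT4 at -1.79, the only one beyond the dotted 2-fold line, to PPP1R15B at 0.33.

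Among the transcription factors the ratios ran both ways. ATF4, which activates amino acid supply and stress genes, stood at the median with a translation ratio of 0.01 (interval -0.05 to 0.07), and 50.9% of expressed genes had a lower ratio. XBP1, which activates ER chaperone, secretory and degradation genes, had a ratio of 0.26 (0.18 to 0.34). Relative to the expressed genes nearest in level, ATF4 was at -0.20 (-0.26 to -0.14) and XBP1 at 0.06 (-0.02 to 0.14), so whether each lies off the median depends on that choice. DDIT3, also called CHOP, promotes cell death in prolonged stress. Its level was 22.3 RPKM as mRNA (253 reads) and 12.9 RPKM as RNC-mRNA (169 reads), a ratio of -0.74 (-1.03 to -0.46) or 1.67-fold below the median. ATF3, a stress-induced factor of the same protein class, rested on 81 and 63 reads and had a ratio of -0.51 (-1.02 to -0.03), or -0.27 (-0.79 to 0.20) relative to the genes nearest in level. DDIT3 thus lay lower in the RNC-mRNA library relative to ATF4, and the intervals of DDIT3 and ATF4 did not overlap. The ratio of ATF4 exceeded that of ATF3 by 0.52, and their intervals overlapped narrowly. Overlap of separate intervals does not decide whether that difference exceeds counting error, which was not tested. A lower ratio of ATF3 than of ATF4 was thus not established. ATF4 RPKM was 8.75 times that of DDIT3 in the mRNA library and 14.8 times in the RNC-mRNA library.

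The 2 phosphatase subunits that reverse eIF2 phosphorylation had the highest ratios of the 10. Their intervals overlapped those of XBP1 (0.18 to 0.34) and CHAC1 (-0.72 to 0.31), so the order among these is within counting error. PPP1R15A, also called GADD34, is the stress-induced subunit and was at 20.3 RPKM as mRNA (467 reads) and 24.7 RPKM as RNC-mRNA (653 reads). Its ratio was 0.32 (interval 0.15 to 0.50), and 77.3% of expressed genes had a lower one. PPP1R15B, also called CReP, is the constitutive subunit and rested on 598 and 841 reads. Its ratio was 0.33 (0.18 to 0.48). The pair differed by -0.01 in ratio, and PPP1R15A RPKM was 1.73 times that of PPP1R15B in the mRNA library and 1.72 times in the RNC-mRNA library.

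The effector genes included the lowest ratios. DDIT4, also called REDD1, restrains the growth kinase complex TORC1 in stress and hypoxia. It was at 40.6 RPKM as mRNA (686 reads) and 11.3 RPKM as RNC-mRNA (220 reads), a ratio of -1.79 (-2.03 to -1.58) or 3.47-fold below the median. Only 4.59% of expressed genes had a lower ratio, and its interval did not overlap that of any other member. ASNS, the asparagine synthetase induced by ATF4, had 20.6 RPKM (468 reads) and 11.1 RPKM (290 reads), a ratio of -0.85 (-1.07 to -0.64) or 1.8-fold below the median. TRIB3, a pseudokinase that restrains ATF4 and DDIT3 activity, had 23.2 RPKM (548 reads) and 21.8 RPKM (593 reads), a ratio of -0.05 (-0.22 to 0.12). CHAC1, which degrades glutathione, rested on 67 and 65 reads and had a ratio of -0.20 (-0.72 to 0.31), an interval that spans the median and is the widest of the 10.

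Some of these values may hold reads of other genes. No strand-preserving step is named in the labels. In the reference, exons of DDIT3 overlap exons of MARS and MBD6 on the opposite strand, and those of DDIT4 overlap DDIT4-AS1. ATF4 has 4 named processed copies in the genome (ATF4P1 to ATF4P4), ASNS has 5 and XBP1 has 1. How reads that fit several loci were placed is not stated in the labels. On the same strand, DDIT3 overlaps the reference gene AC022506.1 and ASNS overlaps AC079781.5. These 5 values are uncertain to that extent.

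Set apart by known upstream frames, ATF4, DDIT3, PPP1R15A, PPP1R15B and CHAC1 had a median ratio of 0.01 and ranged from -0.74 to 0.33. The other 5 had a median of -0.51 and ranged from -1.79 to 0.26. The medians differed by 0.52, with overlapping ranges, and the counting intervals of the middle genes allow a difference from -0.02 to 1.09. The difference was 0.29 without DDIT4, 0.21 when each ratio was taken relative to the expressed genes nearest in level, and 0.15 when the sets were split by an upstream AUG in the assigned transcript (7 members with, 3 without). With overlapping ranges and a size that depends on these choices, no difference between the sets was established. An RNC-mRNA value also does not tell a ribosome on an upstream frame from one on the main frame.

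Upstream AUG codons went with little difference in ratio over the expressed genes. Of 10588 expressed genes with an assigned leader, 53.7% held at least 1 upstream AUG. The median ratio was 0.01 for the 4907 genes with 0, 0.04 for the 2253 genes with 1 and 0.06 for the 3428 genes with 2 or more. The shares at least 2-fold below the median were 8.19%, 8.03% and 8.81%. These classes also differ in median leader length (115, 211 and 378 nt) and in median level (12.8, 10.4 and 9.3 RPKM in the mRNA library), so the values describe the classes and isolate no feature. PPP1R15A and PPP1R15B at 0.32 and 0.33 and DDIT3 at -0.74 all belong to the class with 2 or more, which shows how wide it is.

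**Figure D4:**
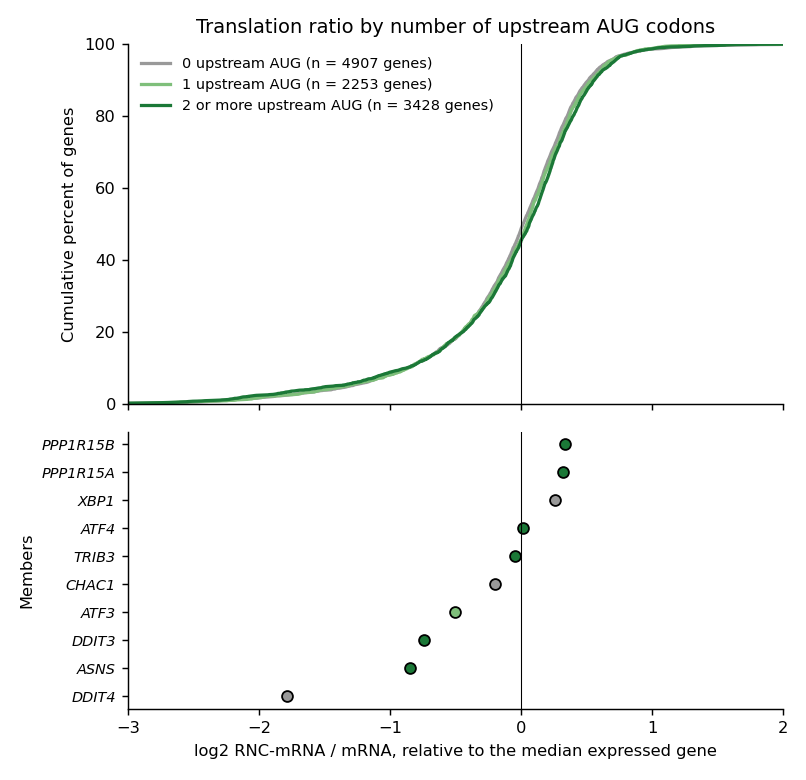
Cumulative percent of expressed genes by translation ratio for genes with 0, 1 and 2 or more upstream AUG codons (top), and the 10 members coloured by the same classes (bottom). The 3 curves nearly coincide, with medians of 0.01, 0.04 and 0.06, and members of 2 or more upstream AUG codons lie on both sides of 0.

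Other mRNAs known for regulatory upstream frames were listed beside the members, although their frames need not act as those of the members do. Of 9, all expressed, 7 lay above the median of expressed genes and 2 below, and 0 was 2-fold away in either direction (median 0.44). For this list and those that follow, the background is 11.8% of all expressed genes at least 2-fold below and 1.37% above. The nucleotide sugar transporter-like SLC35A4 had 54.3 and 88.5 RPKM and a ratio of 0.74 (interval 0.65 to 0.84). CEBPA, a differentiation factor whose upstream frame sets the balance of its protein forms, had 49.6 and 83.9 RPKM and the highest ratio, 0.80 (0.70 to 0.90). The aminoacyl-tRNA synthetase EPRS was lowest at -0.21 (-0.32 to -0.11). No member reached the ratio of SLC35A4 or CEBPA.

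The machinery upstream of ATF4 had ratios on both sides of the median. Of the 12 genes of the eIF2 kinases, eIF2 and its exchange factor eIF2B, all were expressed, 9 lay above the median and 3 below, and 0 was 2-fold away (median 0.18). The eIF2 subunits EIF2S2 (97.5 and 83.2 RPKM, ratio -0.19) and EIF2S3 (63.1 and 64.1 RPKM, 0.06) were the most abundant. EIF2AK4, the amino acid sensor GCN2, was highest at 0.52 (interval 0.37 to 0.69), and EIF2AK2, the double-stranded RNA sensor PKR, was lowest at -0.31 (-0.54 to -0.09). The catalytic subunits that PPP1R15A and PPP1R15B recruit were abundant. PPP1CA had 239 and 322 RPKM (ratio 0.47) and PPP1CC had 109 and 106 RPKM (-0.01), and per length both lay above PPP1R15A and PPP1R15B in both libraries. PPP1CB had 22.9 and 29.8 RPKM (0.42), a level close to that of PPP1R15A.

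The genes of ER stress sensing were spread widely in level. Of 12 genes of the sensors and their processing, 11 were expressed, 8 above and 3 below the median, with 0 at 2-fold (median 0.21). RTCB (listed as C22orf28), the ligase that rejoins XBP1 mRNA after IRE1 cleavage, led with 63.4 and 64 RPKM (ratio 0.05). The protease MBTPS1, which cuts ATF6, followed (28.9 and 35.1 RPKM, 0.32). CREB3L2 was highest at 0.62 and ATF6B lowest at -0.44. The 3 classical sensors, named here after their values were seen, had ratios of -0.09 (ERN1, 2.23 and 2.03 RPKM), 0.13 (EIF2AK3, 7.81 and 8.35 RPKM) and 0.21 (ATF6, 4.61 and 5.19 RPKM). Per length, XBP1 was far more abundant than its activator ERN1 in both libraries.

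Targets of ATF4 that supply amino acids, the group to which ASNS belongs, spread around the median. All 18 were expressed, 8 above and 10 below, with 2 at least 2-fold below and 0 above (median -0.03). Over all expressed genes, 11.8% were at least 2-fold below and 1.37% above, so 2 of 18 is near the background. The transporter SLC1A5 (140 and 133 RPKM, -0.04) and PHGDH, the first enzyme of serine synthesis (113 and 84.4 RPKM, -0.39), were the most abundant. SLC7A5, the large neutral amino acid transporter, was highest at 0.59. The cystine transporter SLC7A11 had 3.56 and 1.29 RPKM and a ratio of -1.36 (interval -1.72 to -1.13), and the glycine transporter SLC6A9 had 12 and 5.46 RPKM and a ratio of -1.08 (-1.35 to -0.85). ASNS, at -0.85 (-1.07 to -0.64), lay between these 2 and the other 16 by value. Its interval overlapped those of SLC6A9 and, among the 16, CTH (-0.99 to 0.14).

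Stress-induced targets of ATF4 or DDIT3 held values far from the median on both sides. Of 15, 13 were expressed, 9 below and 4 above the median, with 3 at least 2-fold below and 1 above (median -0.47), against 11.8% and 1.37% of all expressed genes. The 3 include FGF21, which passed the filter of a mean of 1 RPKM only through its mRNA value. Its place among them follows from that filter. The autophagy receptor SQSTM1 had 59 and 60.9 RPKM (0.08). The secreted stress cytokine GDF15 was the one above, with 22.8 and 78.7 RPKM and a ratio of 1.82 (interval 1.63 to 2.02). ADM2, a secreted peptide hormone, had 7.89 and 2.17 RPKM (-1.77, interval -2.15 to -1.50), and BBC3, the cell death inducer PUMA, had 10.1 and 4.75 RPKM (-1.03, -1.42 to -0.68). FGF21, a secreted metabolic hormone, had 2.11 RPKM of mRNA on 24 reads, while its RNC-mRNA value is a listed 0. With 3 reads taken as the floor of that library and the 24 reads taken as exact, its ratio would be 8.96-fold or more below the median. The upper limit of its counting interval, which also covers the error of the 24 reads, was a ratio of -2.75, a smaller distance.

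Genes served by XBP1 and ATF6 lay on both sides of the median. The 14 ER chaperones and folding genes were all expressed, 8 above and 6 below, with 0 at 2-fold (median 0.05). The calcium-binding chaperone CALR had 508 and 491 RPKM (-0.01), HSP90B1 had 277 and 192 RPKM and the lowest ratio (-0.49), and CANX was highest (0.44). The 10 genes of ER-associated degradation had a median of 0.21, 6 above and 4 below, again with 0 at 2-fold. OS9, which recognises misfolded glycoproteins, had 140 and 88.5 RPKM and the lowest ratio (-0.62), HERPUD1 had 57.4 and 68.7 RPKM (0.30), and DERL1 was highest (0.52).

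**Figure D5:**
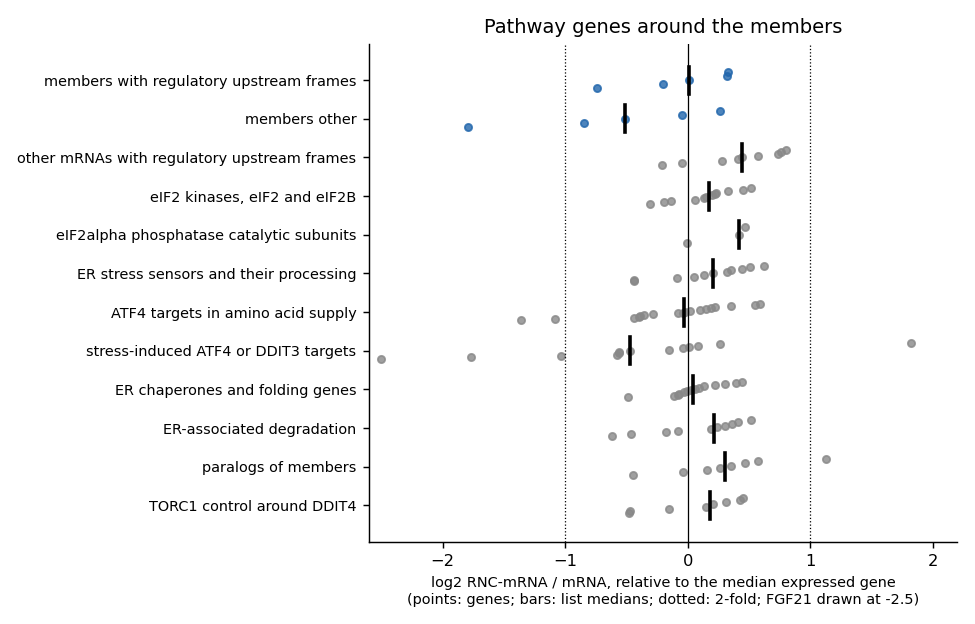
Translation ratios of the expressed genes in each pathway list (points) with the list median (black bars), on the log2 scale relative to the median expressed gene, with dotted lines at 2-fold. Of the members (blue) only DDIT4 lies below -1, as do 2 amino acid supply targets and 3 stress-induced targets. Of these 3, FGF21 passed the expression filter only through its mRNA value. The chaperone, degradation and eIF2 lists keep within 2-fold.

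The promoters were searched for the letters of elements known from these pathways, because several members are themselves targets of ATF4 or of the unfolded protein response. RefSeq windows of 300 bases (250 before to 50 after each start, GRCh38.p14) were matched for all 10 members, in 17 windows. The C/EBP-ATF response element was searched as TGATGNAA on both strands. It was found for 4 of 10 members and for 4.46% of all 27305 genes with a window (3.62% of 35116 windows). The ER stress element was searched as CCAAT followed after 9 bases by CCACG on both strands and was found for XBP1 and for 0.0916% of all genes. The windows below give the match in capitals with 10 bases on either side, along the gene's strand. The CHAC1 match is on the opposite strand.
ASNS, chr7:97872459-97872486, minus strand: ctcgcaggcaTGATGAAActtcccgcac
CHAC1, chr15:40953252-40953279, plus strand: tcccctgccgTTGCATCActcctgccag
ATF3, chr1:212565206-212565233, plus strand: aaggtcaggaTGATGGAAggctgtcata
PPP1R15B, chr1:204412027-204412054, minus strand: ccgccccggcTGATGCAAcctcacgctg
XBP1, chr22:28800593-28800631, minus strand: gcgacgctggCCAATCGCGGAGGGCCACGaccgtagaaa
The matches begin 68 bases before the start that defines the matched window for ASNS, 209 for CHAC1, 191 for ATF3, 227 for PPP1R15B and 52 for XBP1. A gene can have other annotated starts, and the ASNS and CHAC1 matches also lie within annotated transcripts (ASNS-201 and CHAC1-202). The cyclic AMP response element TGACGTCA was found for PPP1R15A (2.25% of all genes), and the unfolded protein response element TGACGTGG for 0 of 10 members (0.927% of all genes). A match is a description of these letters and not a measured binding site, and the 4 members with the first element had ratios from -0.85 (ASNS) to 0.33 (PPP1R15B).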

How the data were processed

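The deposited file gives RPKM per gene for both libraries, computed by the authors from reads on RefSeq records (1 record per gene symbol), per the file headers. Per the submitters' processing notes, hg19 was the build. The aligner and the counter are not given in the sources used here, and the file holds no coordinates. The library totals and each gene's whole reads were worked out from the 7 printed digits with GENCODE 29 transcript lengths. The total was the whole number given by the most combinations of an RPKM value, a reference length of its record and a whole read number up to 399. In the mRNA library 813 combinations gave it, against 714 for the next best total, and in the RNC-mRNA library 657 against 607. A relative error of 2e-07 beyond rounding was allowed. Reads were recovered for 90.4% of expressed genes (median 318 and 351 reads) and for all 10 members. For DDIT4, 3 lengths fitted and the nearest to the reference was used. On simulated data both totals were recovered, and of 2000 genes tried, 99.6% of those fitted had exact reads. The simulated lengths lay close to their references, and the members were searched over a wider range of lengths. That share therefore does not measure how well the members' reads were recovered. Ratios used a pseudocount of 0.1 RPKM and a mean of at least 1 RPKM. Intervals are exact Clopper-Pearson (ratios) and Poisson (levels). Leaders were scanned for every AUG upstream of the annotated start. Python 3.11.15, numpy 2.4.6, scipy 1.17.1, pandas 2.3.3 and matplotlib 3.10.9 were used. All 138 list genes were matched. From each list the text names the 2 of highest mean RPKM, those of highest and lowest ratio and those 2-fold away. The members, lists and tests were chosen with earlier results of these data known. Alternatives were other pseudocounts, filters, centres and transcript choices.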

Additional observations from a re-analysis of the deposited data

How the results depend on the processing

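Of 88 member ratios recomputed under 9 alternatives, 84 stayed within their counting interval and 0 called ratio changed sign. DDIT4 stayed at least 2-fold below the median in all 9, from -1.91 to -1.72. The other 4 ratios belong to the most abundant members, whose intervals are narrow. ATF4 was -0.07 with a mean of at least 5 RPKM and -0.20 relative to the expressed genes nearest in level, and XBP1 was 0.18 and 0.06. ATF4 was below the median in 5 of the 9, so its side of the median is not settled. Relative to the genes nearest in level, the counting intervals of XBP1 and ATF3 came to span the median and that of ATF4 lay wholly below it. ATF3 and CHAC1 did not pass the filter of 5 RPKM. The number of members below the median was 5 to 7 of those tested. The difference between the sets' medians ranged from 0.15 to 0.61, and leaving out DDIT4, chosen after seeing the data, gave 0.29. Over all expressed genes, the median ratio with 2 or more upstream AUG codons exceeded that with 0 by 0.05 by either transcript choice. No paired analysis was possible because each group has 1 library. Depth limits ATF3 and CHAC1 most, on 63 to 81 reads per library.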

Other observations

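Paralogs of the members lay mostly above the median. Of 9 paralogs, 8 were expressed, 6 above and 2 below the median (median 0.31). At least 2-fold above lay 1 and below lay 0, against 1.37% and 11.8% of all expressed genes. CREB3, an ER-anchored relative of ATF6, had 23.1 and 28.6 RPKM and a ratio of 0.35. ASNSD1, a relative of ASNS, had 17.9 and 24.2 RPKM and a ratio of 0.47 (interval 0.30 to 0.65), against -0.85 for ASNS, and the intervals did not overlap. CHAC2, the constitutive relative of CHAC1, had 0.976 and 2.19 RPKM on 12 and 31 reads and the highest ratio (1.13, interval 0.20 to 2.30), with an interval that overlapped that of CHAC1. CHAC2 is the paralog counted as 2-fold above, and it passed the expression filter only through its RNC-mRNA value. TRIB2 was lowest at -0.45, and the DDIT4 relative DDIT4L had under 1 RPKM in both libraries (0.354 and 0.48).

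The TORC1 pathway that DDIT4 restrains had ratios on both sides of the median. Of 9 genes, 8 were expressed, 5 above and 3 below, with 0 at 2-fold (median 0.18). RHEB, the GTPase that activates TORC1, had 50.2 and 66.7 RPKM and the highest ratio (0.45). TSC2 had 19.3 and 13.5 RPKM (-0.47), and its partner TSC1 was lowest (-0.48). These 2 genes form the complex through which DDIT4 acts on TORC1, and both lay below the median, as DDIT4 did, at a smaller distance.

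Some of the promoter letters also lie in annotated leaders. The C/EBP-ATF match of ASNS covers bases 67 to 74 of ASNS-201, and that transcript's upstream AUG codons at positions 66 and 69 share letters with it. The match of CHAC1 lies at bases 114 to 121 of CHAC1-202 and inside its frame of 202 codons. Whether these transcripts are made in Caco-2 cells was not measured.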
